A study of Mus musculus with 18 samples.

Results

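The germinal centre B cell genes described here were Bcl6, Mef2b, Mybl1, S1pr2, Rgs13, Gcsam and Neil1, which were found by gene symbol: 7 of the 55385 genes in the deposited spleen tables, each present once. The series compared poly(A) RNA from whole spleens of Dp16 mice, Dp16 2xIFNRs mice and wild-type C57BL/6J mice (WT), with 6 libraries each, 3 from females and 3 from males. Dp16 mice carry, in every cell, an extra copy of the stretch of mouse chromosome 16 that corresponds to much of human chromosome 21, and are a model of Down syndrome. Dp16 2xIFNRs mice carry the same extra stretch, with the interferon receptor genes inside it brought back to the usual pair of copies. No animal received a treatment. All animals are described as adult, and the age field, headed as days post conception, holds values of 17.1 to 18.0 whose unit could not be interpreted. Neither cell sorting nor immunisation is given in the labels, so the values come from all cells of the spleen.

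Germinal centres are structures in the B cell follicles of the spleen and lymph nodes in which activated B cells divide, mutate their immunoglobulin genes and are selected by follicular helper T cells. BCL6 is the repressor that establishes the germinal centre state, and it is also made by follicular helper T cells. MEF2B and MYBL1 are further transcription factors of these B cells, and human MEF2B activates BCL6. S1PR2 is a sphingosine-1-phosphate receptor that keeps the cells in the follicle centre, RGS13 shortens G protein signals from chemokine receptors, GCSAM is a signalling adaptor that restrains motility, and NEIL1 is a DNA glycosylase that removes oxidised bases. Rgs13 is also made by mast cells.

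None of the 7 genes lies in the extra stretch. Bcl6 (GRCm38 16:23965052-23988852, minus strand) and Gcsam (16:45610380-45622867, plus strand) are on chromosome 16, but lie 51.6 Mb and 29.9 Mb before the interval from Lipi to Zbtb21 that is usually given for Dp16. The other positions were 8:70139711-70167488 for Mef2b (plus strand), 1:144138654-144177372 for Rgs13 (minus strand), 9:57142800-57148305 for Neil1 (minus strand), 9:20962361-20976781 for S1pr2 (minus strand) and 1:9667415-9700209 for Mybl1 (minus strand). Mef2b shares 62 exonic bases with Borcs8 on the same strand, so reads from that stretch cannot be assigned to one of them. Borcs8 had a mean count of 1143.1 reads a library.

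RefSeq promoter windows of 250 bases before the transcript start (GRCm38.p6) were available for 6 of the 7 genes, 7 windows in all. Those of Mef2b, Rgs13 and S1pr2 are shown because Pearson's r between these genes was 0.89 or above over the 18 libraries with genotype means removed, and 1 of the 2 Bcl6 windows because Bcl6 was the member called lower. Each is written 5′ to 3′ on the gene's own strand, with motif matches in capitals:
Mef2b, 8:70152511-70152760, plus strand: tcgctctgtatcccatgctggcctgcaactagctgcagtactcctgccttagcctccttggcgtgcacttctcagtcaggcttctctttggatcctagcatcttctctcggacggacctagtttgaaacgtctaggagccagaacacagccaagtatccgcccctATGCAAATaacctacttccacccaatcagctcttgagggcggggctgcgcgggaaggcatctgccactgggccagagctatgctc
Rgs13, 1:144177373-144177622, minus strand: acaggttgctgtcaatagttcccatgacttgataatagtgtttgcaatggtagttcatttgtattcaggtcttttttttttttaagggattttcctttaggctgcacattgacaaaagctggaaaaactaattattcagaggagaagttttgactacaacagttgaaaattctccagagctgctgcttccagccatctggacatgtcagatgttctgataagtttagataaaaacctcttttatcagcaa
S1pr2, 9:20976794-20977043, minus strand: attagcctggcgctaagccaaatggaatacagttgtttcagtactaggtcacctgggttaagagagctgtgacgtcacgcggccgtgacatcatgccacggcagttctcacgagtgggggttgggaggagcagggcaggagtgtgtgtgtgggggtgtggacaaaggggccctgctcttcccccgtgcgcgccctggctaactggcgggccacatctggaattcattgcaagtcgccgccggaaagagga
Bcl6, 16:23981284-23981533, minus strand: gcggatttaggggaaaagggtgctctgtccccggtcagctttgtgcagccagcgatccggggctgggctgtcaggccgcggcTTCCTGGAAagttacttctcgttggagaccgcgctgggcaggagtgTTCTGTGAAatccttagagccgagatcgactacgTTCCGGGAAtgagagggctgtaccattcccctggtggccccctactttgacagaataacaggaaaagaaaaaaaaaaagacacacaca
The capitals mark the octamer ATGCAAAT, bound by OCT2 in B cells, in the Mef2b window, 85 bases before the start (at -85), and the core TTCNNNGAA, common to BCL6 and STAT sites, at -168, -122 and -88 in the Bcl6 window. The Rgs13 and S1pr2 windows held no match to the motifs searched. Matches were sought on both strands and none overlapped another. The octamer was present in 1.6% and the TTCNNNGAA core in 7.02% of 32851 promoter windows of that length. A MEF2 box (3.2% of windows) and an E2F core, TTTCGCGC (0.256%), matched none of the 7 windows. The second Bcl6 window (16:23988853-23989102), directly before the annotated start of the gene, held 1 TTCNNNGAA core, at -118. The Bcl6 window shown lies inside the annotated span of Bcl6, and the Mef2b window inside that of Mef2b. A match is a run of letters and not evidence of binding.

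Values are given as CPM, read counts relative to library size after scaling by the trimmed mean of M values (TMM), and as the deposited RPKM, which also divides by gene length, where genes are set against each other. Library totals ranged from 33998427 to 53021480 counts, and the lowest count of a member in any library was 49. Per length as the authors set it, Bcl6 was the most abundant member in Dp16 spleens at 16.9 ± 1.55 RPKM (SD, n = 6), with Neil1 at 15.6 ± 1.69 RPKM and Mef2b at 15.2 ± 1.81 RPKM within its spread. Gcsam followed at 8.05 ± 1.83 RPKM, then Rgs13 at 4.19 ± 1.3 RPKM and S1pr2 at 3.28 ± 0.322 RPKM, within the Rgs13 spread, and Mybl1 at 2.33 ± 0.355 RPKM. Dp16 2xIFNRs spleens gave the same order, from Bcl6 at 16.6 ± 2.16 RPKM, Neil1 at 15.4 ± 2.89 RPKM and Mef2b at 14.8 ± 5.43 RPKM, which overlapped, through Gcsam at 7.85 ± 1.47 RPKM to Rgs13 at 4.69 ± 1.32 RPKM, S1pr2 at 3.18 ± 0.76 RPKM and Mybl1 at 2.35 ± 0.626 RPKM. In WT spleens Bcl6 was highest, at 22.7 ± 4.93 RPKM. Neil1 was next in WT at 12.3 ± 2.09 RPKM, followed by Mef2b at 8.09 ± 5.53 RPKM and Gcsam at 5.52 ± 1.78 RPKM, a pair that did not differ beyond their spread. S1pr2 (2.4 ± 1.11 RPKM), Rgs13 (2.17 ± 1.39 RPKM) and Mybl1 (1.47 ± 0.775 RPKM) were the lowest in WT and overlapped one another. The first place of Bcl6 depends on its deposited length of 3525 bases: over the 6700 exonic bases of GENCODE vM21 its mean would be 8.89 in Dp16, 8.73 in Dp16 2xIFNRs and 11.9 in WT, below that of Neil1 in each genotype, though close to it in WT.

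In Dp16 against WT spleens, Gcsam, Neil1, Rgs13 and Mybl1 were higher, Bcl6 was lower, and Mef2b and S1pr2 had higher means that did not pass the test. Thus 4 of 7 members were called higher and 1 lower at an adjusted p below 0.05 (edgeR quasi-likelihood test, Benjamini-Hochberg over 18634 tested genes). Of all tested genes, 16.6% were called higher and 13.2% lower in this comparison, 29.8% in either direction. The median log2 fold change was 0.66 over the members and -0.01 over all tested genes. The calls of the members other than Bcl6 are not independent of one another. Within WT these genes had r from 0.75 to 0.99, and all were low in WT replicates 1, 4 and 5. The split of all calls depended on scaling: 55.7% of them were higher with TMM and 43.4% with upper-quartile scaling (both edgeR). On log2 of deposited RPKM + 0.1 it was 36.1%, with the median of all genes at -0.13, but the test there was limma. Each of the 7 members kept its direction in these fits. With upper-quartile scaling Mybl1 lost its call in Dp16 (adjusted p = 0.0593, edgeR) and Dp16 2xIFNRs (0.0532). On RPKM Neil1 lost its call in Dp16 2xIFNRs (0.0579 with a pseudocount of 0.1 and 0.058 with 1, limma). Mef2b gained a call on RPKM in Dp16 (0.0313 and 0.0293, limma) and Dp16 2xIFNRs (0.0478 and 0.0455). In Dp16 2xIFNRs against WT spleens the same rule called 4 of 7 members higher and 1 lower, where 17.3% of all genes were higher, 14.2% lower and 31.4% called in either direction. The member median was 0.62, against -0.01 over all genes. Both comparisons use the same 6 WT libraries and are therefore not independent. DESeq2, on the same genes, called 7 of 7 members in both, 6 higher and Bcl6 lower, and so did limma with voom and a block on the description codes that some libraries share. Of the 18634 genes, edgeR called 3091 higher and 2462 lower in Dp16, and 3217 and 2643 in Dp16 2xIFNRs. The numbers were larger with DESeq2, at 3166 and 2878 in Dp16, and 3304 and 2963 in Dp16 2xIFNRs. With the block they were 3172 and 2795 in Dp16, and 3367 and 3076 in Dp16 2xIFNRs.

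**Figure D1:**
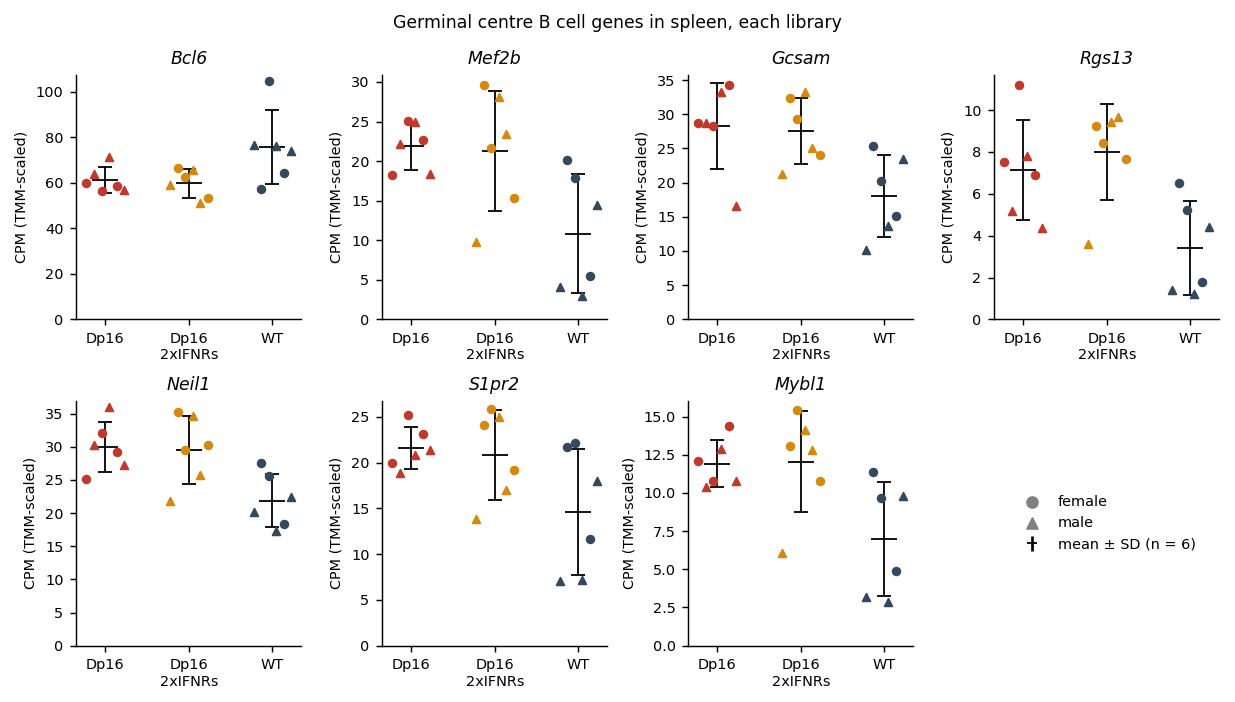
TMM-scaled CPM of each germinal centre gene in every library of Dp16, Dp16 2xIFNRs and WT spleens, circles for females and triangles for males, with the mean and SD of 6 libraries. For the 6 genes other than Bcl6 the WT libraries spread from far below the Dp16 libraries to within their range; for Mef2b they run from 2.92 to 20.1 CPM, against 18.2 to 25.1 CPM in Dp16.

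Bcl6 had between 56.4 and 71.3 CPM in Dp16 spleens (median 59.4), between 51.4 and 66.6 CPM in Dp16 2xIFNRs spleens (median 61.0), and between 57.4 and 105 CPM in WT spleens (median 75.2). The groups overlapped: WT replicates 2 and 5 lay among the Dp16 libraries, and WT replicate 3, at 105 CPM, was the highest of all 18. The log2 fold change was -0.31 ± 0.11 (SE) in Dp16 against WT (adjusted p = 0.0448, edgeR) and -0.34 ± 0.11 in Dp16 2xIFNRs against WT (adjusted p = 0.0255, edgeR). The Dp16 call was lost when any 1 of 11 libraries was left out (WT 1, 3, 4 and 6, Dp16 1, 2, 3, 5 and 6, Dp16 2xIFNRs 3 and 4), and without WT replicate 3 the difference fell to -0.17 with an adjusted p of 0.169. The Dp16 2xIFNRs call was lost without WT replicate 3 (-0.2, adjusted p = 0.1), Dp16 2xIFNRs replicate 5 or Dp16 2xIFNRs replicate 6.

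Mef2b had between 18.2 and 25.1 CPM in Dp16 spleens (median 22.4), between 9.77 and 29.6 CPM in Dp16 2xIFNRs spleens (median 22.6), and 4.12, 20.1, 17.9, 2.92, 5.53 and 14.4 CPM in WT replicates 1 to 6. WT replicates 1, 4 and 5 were low, WT replicates 2, 3 and 6 lay between 14.4 and 20.1 CPM, and 5 of 6 WT libraries lay below the lowest Dp16 library. The log2 fold change was 1.08 ± 0.42 (adjusted p = 0.0679, edgeR) in Dp16 and 1.03 ± 0.42 (adjusted p = 0.0765, edgeR) in Dp16 2xIFNRs against WT, short of the threshold. DESeq2 gave adjusted p-values of 0.0309 and 0.0376 for these differences, and the description-code block (limma) 0.0233 and 0.03. Without WT replicate 2 edgeR also called Mef2b, with adjusted p-values of 0.0356 in Dp16 and 0.0395 in Dp16 2xIFNRs, and in Dp16 without WT replicate 6. Its neighbour Borcs8 had log2 fold changes of 0.095 ± 0.076 (adjusted p = 0.389, edgeR) in Dp16 and 0.212 ± 0.076 (adjusted p = 0.037, edgeR) in Dp16 2xIFNRs.

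Mybl1, a Myb-family activator also known from male meiosis, had 10.4 to 14.4 CPM in Dp16 spleens (median 11.5), 6.08 to 15.4 CPM in Dp16 2xIFNRs spleens (median 12.9), and 2.89 to 11.4 CPM in WT spleens (median 7.25). WT replicates 1, 4 and 5 were again the low ones, at 3.21, 2.89 and 4.86 CPM, and WT replicate 2 at 11.4 CPM reached the Dp16 range. Mybl1 differed by a log2 fold change of 0.8 ± 0.29 in Dp16 (adjusted p = 0.0458, edgeR) and 0.81 ± 0.29 in Dp16 2xIFNRs (adjusted p = 0.0417, edgeR). In Dp16 the call was lost without any 1 of 13 libraries (WT 1, 4 and 5, all 6 Dp16, Dp16 2xIFNRs 2, 3, 5 and 6), with adjusted p up to 0.0991, and in Dp16 2xIFNRs without any 1 of 10 (WT 1, 4 and 5, Dp16 1, 2 and 5, Dp16 2xIFNRs 2, 3, 4 and 5), with adjusted p up to 0.0925.

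S1pr2 had 18.9 to 25.2 CPM in Dp16 spleens (median 21.1), 13.8 to 25.8 CPM in Dp16 2xIFNRs spleens (median 21.7), and 7.07 to 22.1 CPM in WT spleens (median 14.8). WT replicates 2 and 3, at 21.7 and 22.1 CPM, lay inside the Dp16 range and the other 4 WT libraries lay below it. The log2 fold change of 0.6 ± 0.23 in Dp16 (adjusted p = 0.0612, edgeR) and of 0.54 ± 0.23 in Dp16 2xIFNRs (adjusted p = 0.0879, edgeR) missed the threshold. DESeq2 gave adjusted p-values of 0.0216 and 0.0388, and the description-code block (limma) 0.0286 and 0.0421. In edgeR the Dp16 difference passed without WT replicate 2, WT replicate 3, WT replicate 6 (adjusted p = 0.0188) or Dp16 2xIFNRs replicate 4, and the Dp16 2xIFNRs difference without WT replicate 6 (adjusted p = 0.0271).

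Rgs13 had 4.39 to 11.2 CPM in Dp16 spleens (median 7.21), 3.58 to 9.69 CPM in Dp16 2xIFNRs spleens (median 8.83), and 1.21 to 6.51 CPM in WT spleens (median 3.1). Its lowest WT values were 1.39, 1.21 and 1.8 CPM in replicates 1, 4 and 5, below every library with the extra stretch. The log2 fold change was 1.1 ± 0.36 in Dp16 (2.14-fold, adjusted p = 0.0271, edgeR) and 1.29 ± 0.36 in Dp16 2xIFNRs (2.45-fold, adjusted p = 0.0104, edgeR), in Dp16 close to that of Mef2b. The Dp16 call was lost without WT replicate 1, 4 or 5 or Dp16 replicate 3 or 4 (adjusted p up to 0.0681), while the Dp16 2xIFNRs call held without any 1 library (adjusted p up to 0.0275). Of 11 mast cell and basophil genes, 8 were higher and 0 lower in Dp16, where 16.6% of all tested genes were higher and 13.2% lower. Kit (-0.2 ± 0.09), Cma1 (-0.35 ± 0.32) and Gata2 (0.26 ± 0.1) were not called. The summed level of the list was 117 to 253 CPM in Dp16 and 73.8 to 105 CPM in WT. In Dp16 2xIFNRs 6 of these genes were higher and 1, Kit, lower, where 17.3% of all genes were higher and 14.2% lower. The part of this list in the Rgs13 difference was not tested.

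Gcsam had 16.6 to 34.2 CPM in Dp16 spleens (median 28.7), 21.3 to 33.2 CPM in Dp16 2xIFNRs spleens (median 27.2), and 10.1 to 25.4 CPM in WT spleens (median 17.7). Dp16 replicate 6 was the low library of its group, at 16.6 CPM, and the other 5 Dp16 libraries lay above all WT libraries. For Gcsam the log2 fold change was 0.66 ± 0.2 in Dp16 (1.58-fold, adjusted p = 0.0173, edgeR) and 0.62 ± 0.2 in Dp16 2xIFNRs (1.54-fold, adjusted p = 0.022, edgeR). The Dp16 call held without any 1 library (adjusted p up to 0.0477), and the Dp16 2xIFNRs call was lost without WT replicate 4, WT replicate 5 or Dp16 2xIFNRs replicate 4 (adjusted p up to 0.0573).

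Neil1 had 25.2 to 36.0 CPM in Dp16 spleens (median 29.7), 21.9 to 35.2 CPM in Dp16 2xIFNRs spleens (median 29.8), and 17.3 to 27.5 CPM in WT spleens (median 21.3). Of the Dp16 libraries, 4 lay above every WT library, and 4 WT libraries lay below every Dp16 library. Its log2 fold change was 0.46 ± 0.13 in Dp16 (1.38-fold, adjusted p = 0.00831, edgeR) and 0.43 ± 0.13 in Dp16 2xIFNRs (1.35-fold, adjusted p = 0.0116, edgeR). Both calls held without any 1 library, with adjusted p up to 0.0284 in Dp16 and 0.0401 in Dp16 2xIFNRs.

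None of the 7 members separated the groups completely in CPM, in either comparison with WT; of all tested genes, 12.8% did in Dp16 against WT and 12.6% in Dp16 2xIFNRs against WT. Erythroid genes (14 of 14 higher in Dp16, summed level 19956 to 38047 CPM in Dp16 and 4978 to 18348 CPM in WT) and neutrophil genes (13 of 15 higher, 3462 to 11229 CPM in Dp16 and 549 to 2088 CPM in WT) moved with genotype. Neither summed level overlapped between WT and Dp16 or Dp16 2xIFNRs, so a model with these scores cannot separate them from genotype. With erythroid and neutrophil scores as terms of the model, 0 of 7 members and 0 of 18634 genes were called against WT in either genotype (edgeR; 1 of 7 members in Dp16 and 0 of 7 in Dp16 2xIFNRs, and 880 and 986 genes, had an unadjusted p below 0.05). The Bcl6 estimate was then 0.67 ± 0.32 in Dp16 and 0.59 ± 0.3 in Dp16 2xIFNRs. The other 6 differences stayed positive with larger errors, in Dp16 at 1.20 ± 1.25 for Rgs13, 0.93 ± 1.49 for Mef2b, 0.64 ± 0.43 for Neil1, 0.60 ± 0.69 for Gcsam, 0.49 ± 1.03 for Mybl1 and 0.44 ± 0.84 for S1pr2. Over 4% of counts fell on Gm42418, an annotated transcript that overlaps ribosomal RNA, in 4 libraries: Dp16 replicates 2 and 3, Dp16 2xIFNRs replicate 5 and WT replicate 4. Without them, 0 of 7 members were called in Dp16 (4 of 7 had an unadjusted p below 0.05, as had 6424 of 18976 genes). In Dp16 2xIFNRs 1 of 7 was called, Neil1 (0.42 ± 0.14, adjusted p = 0.0351, edgeR), and the directions of all 7 were kept in both. Of the 18976 genes, 2493 were called higher and 1683 lower in Dp16, and 2609 and 1734 in Dp16 2xIFNRs. The Dp16 differences were then 0.86 ± 0.39 for Rgs13, 0.83 ± 0.47 for Mef2b, 0.74 ± 0.33 for Mybl1 and 0.61 ± 0.26 for Gcsam. Those of S1pr2, Neil1 and Bcl6 were 0.47 ± 0.27, 0.39 ± 0.15 and -0.28 ± 0.13.

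**Figure D2:**
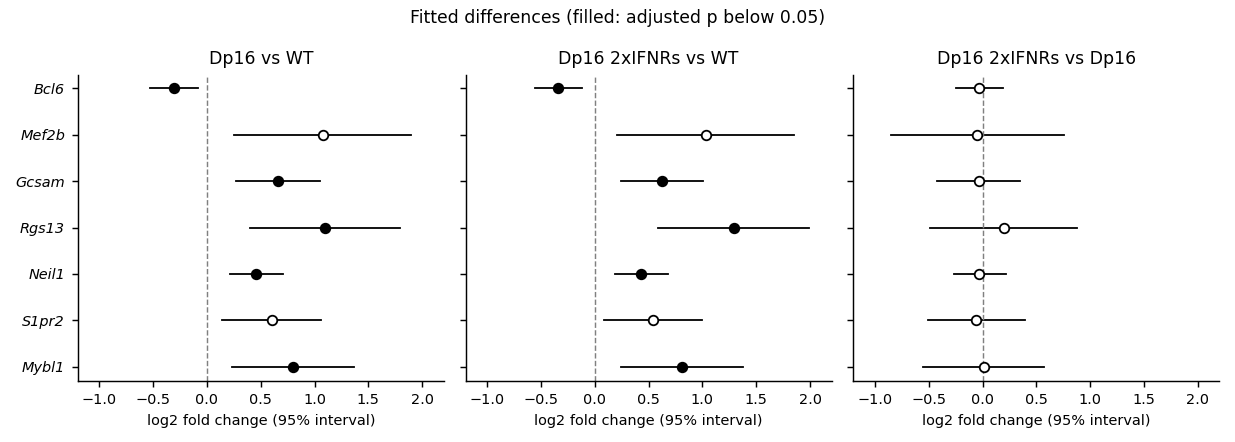
Fitted log2 fold change of each gene with its 95% interval in Dp16 vs WT, Dp16 2xIFNRs vs WT and Dp16 2xIFNRs vs Dp16, filled where the adjusted p is below 0.05. The intervals are a normal approximation from the SE, without adjustment for the number of genes tested. Those against WT lie to one side of 0, below it for Bcl6 and above it for the others, although Mef2b and S1pr2 did not pass the test. The intervals between the 2 genotypes with the extra stretch all cross 0.

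Between Dp16 2xIFNRs and Dp16 spleens, which asks whether interferon receptor copy number changes these genes, 0 of 7 members were called (edgeR, adjusted p of 1 for each). Of all tested genes 0.0215% were called, and 2.35% had an unadjusted p below 0.05, a level reached by 0 of 7 members; DESeq2 called 0 of 7 as well. The log2 fold changes ran from -0.06 ± 0.23 for S1pr2 to 0.2 ± 0.35 for Rgs13. The 95% intervals were a normal approximation without adjustment. They were narrowest for Bcl6, from -0.25 to 0.19, and for Neil1, from -0.27 to 0.22, and widest for Mef2b, from -0.85 to 0.76. A p above the threshold does not show that the genotypes are alike.

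Females against males, over all 18 libraries, gave 0 of 7 members called (edgeR sex term; 1 of 7 had an unadjusted p below 0.05, and DESeq2 called 0), where 0.258% of all tested genes were called. S1pr2 had the smallest unadjusted p, 0.0444, with 21.4 ± 4.31 CPM in females and 16.6 ± 6.18 CPM in males (SD, n = 9 each), a log2 fold change of 0.41 ± 0.19 and an adjusted p of 0.547. Rgs13 averaged 7.16 ± 2.63 CPM in females and 5.23 ± 3.14 CPM in males (0.54 ± 0.29, adjusted p = 0.613, edgeR). No interaction of sex with genotype was called for a member or for any other tested gene (adjusted p of 1 for each member). WT replicates 1 and 4 were males and WT replicate 5 a female, so the low WT libraries were of both sexes.

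The members also differed in how far the libraries of 1 genotype spread. The SD of log2 CPM over 6 libraries had a member median of 0.18 in Dp16, 0.36 in Dp16 2xIFNRs and 0.76 in WT, beside 0.26, 0.28 and 0.24 over all tested genes. For 7 of 7 members the SD was largest in WT, although for Neil1 the Dp16 2xIFNRs and WT values both round to 0.26. Of all tested genes 22.3% had their largest SD in WT. The members other than Bcl6 had r from 0.75 to 0.99 within WT, so they are not independent counts of this spread. The highest WT library exceeded the lowest by 6.9 times for Mef2b and 5.37 times for Rgs13, against 1.38 times and 2.55 times among Dp16 libraries. For Bcl6 the ratios were 1.27 in Dp16 and 1.84 in WT.

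**Figure D3:**
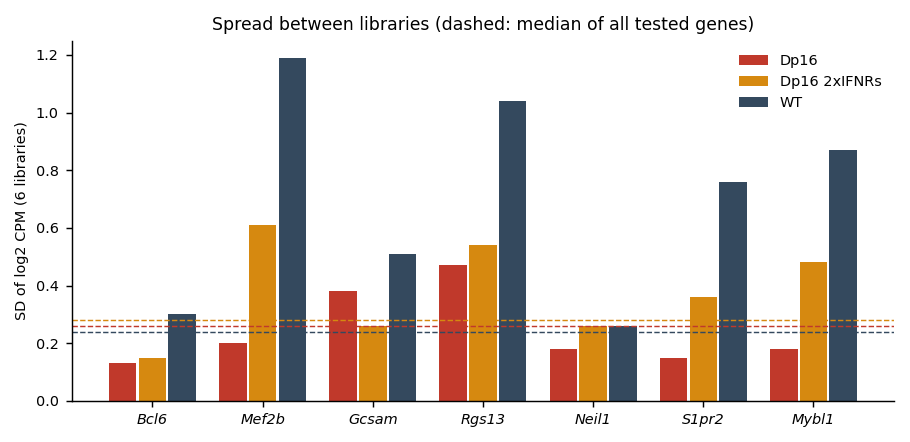
SD of log2 CPM over the 6 libraries of Dp16, Dp16 2xIFNRs and WT for each gene, with dashed lines at the median over all tested genes of each genotype. The WT bars reach 1.19 for Mef2b and 1.04 for Rgs13, while Bcl6 stays at 0.3 or below in each genotype.

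Since all 13 B cell genes of the marker list were lower in Dp16 and in Dp16 2xIFNRs than in WT (Fcmr by -0.89 ± 0.09 and Cr2 by -0.77 ± 0.1 on the log2 scale in Dp16), the members were also set against their sum. CPM are relative to the RNA of all spleen cells. Fewer B cells, less RNA per B cell and more RNA from other cells cannot be told apart in bulk RNA. The summed B cell level averaged 3322 CPM in Dp16, 3467 CPM in Dp16 2xIFNRs and 5233 CPM in WT. Per 1000 CPM of the list, Mef2b was at 6.61 ± 0.959 in Dp16 and 2.23 ± 1.69 in WT (SD, n = 6 each), a log2 difference of 2.02, and Neil1 at 9.04 ± 0.996 in Dp16 and 4.31 ± 1.26 in WT, a log2 difference of 1.11. S1pr2 differed by 1.35, Gcsam by 1.34, Rgs13 by 1.95 and Mybl1 by 1.61 in Dp16 against WT. Bcl6, lower per library, was higher per B cell list level, at 18.5 ± 1.05 in Dp16 and 14.5 ± 2.84 in WT, a log2 difference of 0.36 with overlapping groups. The summed list itself differed by -0.65 on the log2 scale, and over 16157 genes the median log2 difference per B cell list level was 0.64, with the Bcl6 value below it and the other 6 above it.

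On this scale Mef2b, Neil1, S1pr2 and Mybl1 did not overlap between Dp16 and WT, all 4 higher in Dp16, as was the case for 37.3% of all tested genes. Gcsam and Neil1 did not overlap between Dp16 2xIFNRs and WT, with both higher in Dp16 2xIFNRs, as was the case for 33.3% of all tested genes. Dp16 replicate 6 fell inside the WT range for Gcsam, and Dp16 replicates 2 and 6 for Rgs13. Dp16 2xIFNRs replicate 1 fell inside it for Mef2b, Rgs13, S1pr2 and Mybl1, and Dp16 2xIFNRs replicate 5 for S1pr2.

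**Figure D4:**
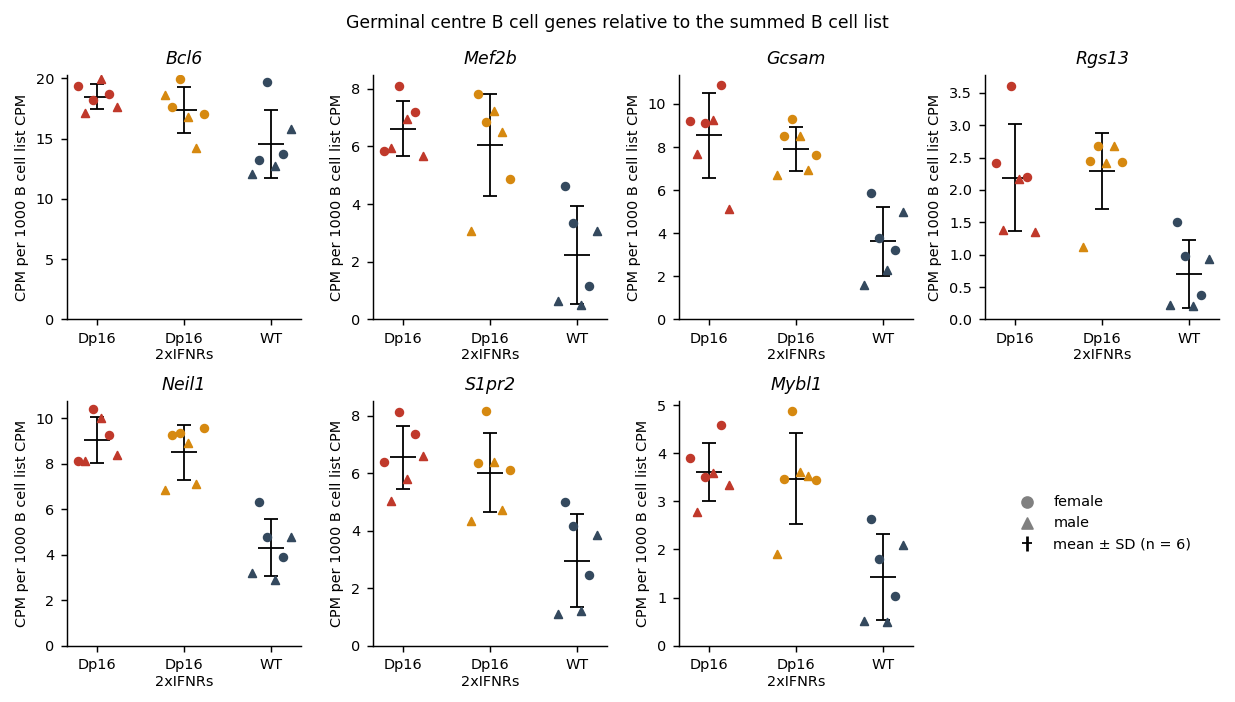
CPM of each gene per 1000 CPM of the summed B cell list, by library, with the mean and SD of 6 libraries of Dp16, Dp16 2xIFNRs and WT. Neil1 runs from 8.11 to 10.4 in Dp16 and from 2.89 to 6.32 in WT, without overlap, and Bcl6 overlaps in all 3 genotypes.

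After removal of genotype means, 6 of the members were correlated between libraries over all 18, and Bcl6 less so, but the pattern differed within genotypes. Over 18 libraries, which share the scaling and the tissue, Pearson's r of log2 CPM ran from 0.67 to 0.95 (median 0.8) over the 15 pairs without Bcl6, and from 0.03 to 0.28 (median 0.13) over the 6 pairs with it. The highest values were those of Mef2b with Mybl1 (0.95), S1pr2 with Mybl1 (0.94), Mef2b with Rgs13 (0.93) and Mef2b with S1pr2 (0.93). Within the 6 WT libraries, where the spread was wide, the 15 pairs without Bcl6 ran from 0.75 to 0.99, and within Dp16 2xIFNRs from 0.73 to 0.95. Within Dp16, where the spread was narrow, they ran from 0.05 (Gcsam with S1pr2) to 0.92 (Mef2b with Neil1), with Mef2b with Mybl1 at 0.16 and S1pr2 with Mybl1 at 0.2. Bcl6 reached 0.73 with Gcsam, 0.64 with S1pr2 and 0.56 with Neil1 within Dp16 2xIFNRs, and 0.61 with Neil1 but -0.55 with S1pr2 within Dp16, against -0.13, 0.06 and 0.07 within WT for Gcsam, S1pr2 and Neil1.

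**Figure D5:**
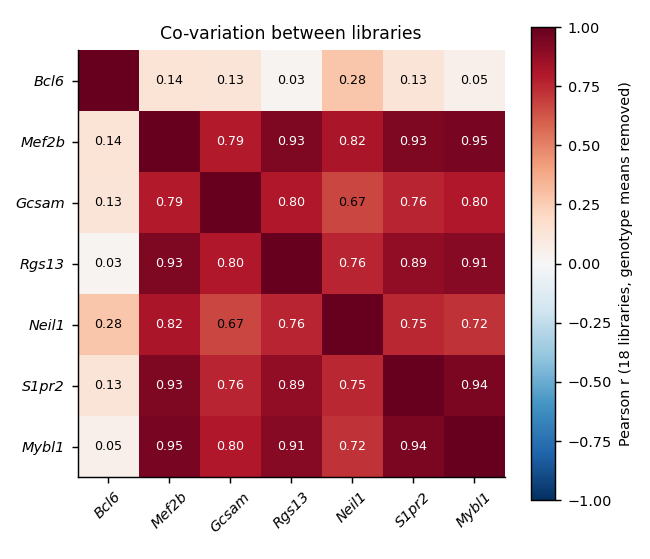
Pearson's r between the log2 CPM of each pair of genes over 18 libraries after removal of genotype means, from blue at -1 to red at 1. The Bcl6 row and column hold values of 0.28 or below, and the other pairs 0.67 or above.

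Among 14214 genes with a mean log2 CPM above 0, those that followed the mean of the standardised members closely over the 18 libraries included the linker histone gene H1f10 (r = 0.89), the chromatin protein gene Hmga1 (0.87), Nuggc, a GTPase gene of germinal centre B cells (0.87), Pdcd1, the PD-1 receptor of follicular helper T cells (0.87), the casein gene Csn2 (0.87), Tigit, an inhibitory receptor of T cells (0.86), and the transcription factor gene Bhlhe41 (0.86). H1f10 had 8.53, 7.58, 9.16, 8.56, 9.89 and 8.52 CPM in Dp16, 2.53, 12.9, 8.27, 10.7, 6.15 and 8.58 CPM in Dp16 2xIFNRs, and 2.99, 8.47, 10.5, 3.54, 4.12 and 7.44 CPM in WT. As for the 6 members other than Bcl6, WT replicates 1, 4 and 5 were its low WT libraries. None of these genes was called in Dp16 against WT. Their log2 fold changes ran from -0.05 ± 0.16 for Bhlhe41 to 2.07 ± 0.8 for Csn2, which had almost no reads in some libraries.

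The wider list of 21 germinal centre genes did not move in one direction: in Dp16 3 were higher, 7 lower and 11 not called, with a median of -0.05, and in Dp16 2xIFNRs 3 were higher and 6 lower. Ezh2, a histone methyltransferase, rose by 0.81 ± 0.11 (adjusted p = 2.49e-05, edgeR) and Ccnd3, a G1 cyclin of dividing germinal centre cells, by 0.79 ± 0.13 (adjusted p = 0.000246, edgeR) in Dp16, and Basp1 by 0.34 ± 0.11. The genes that fell were Bach2 (-0.92 ± 0.18), Spib (-0.68 ± 0.09), Foxp1 (-0.65 ± 0.1), Foxo1 (-0.6 ± 0.11), Plxnb2, Cd83 and Irf8, of which Bach2, Spib, Foxp1 and Foxo1 encode transcription factors that resting B cells also make. Ezh2 and Ccnd3 serve dividing cells in general, and all 15 cell cycle genes were higher in Dp16 (median 1.24), at a summed 2814 to 4279 CPM in Dp16 and 797 to 2759 CPM in WT; their part in these differences was not tested. Nuggc and Eaf2 had log2 fold changes of 0.71 ± 0.39 and 0.6 ± 0.32 that did not pass (adjusted p = 0.199 and 0.185, edgeR).

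Relatives of the members were more often called lower than higher. Of 19 tested, 4 were called higher and 8 lower in each of the comparisons with WT, and Rgs8 was too low to test. Of all tested genes, 16.6% were called higher and 13.2% lower in Dp16, and 17.3% and 14.2% in Dp16 2xIFNRs. The genes called higher were not all the same. Myb was called in Dp16 only, and Rgs1 in Dp16 2xIFNRs only (0.65 ± 0.17, adjusted p = 0.0057, edgeR). Beside S1pr2, the receptors S1pr1 (-0.63 ± 0.08), S1pr3 (-0.69 ± 0.12) and S1pr4 (-0.47 ± 0.1), of which S1pr1 draws lymphocytes towards blood, fell in Dp16, and S1pr5 had -0.08 ± 0.27 without a call. Beside Mef2b, Mef2c fell by 0.68 on the log2 scale, Mef2d by 0.45 and Mef2a by 0.34, and Bcl6b, the closest relative of Bcl6, had -0.57 ± 0.15. Beside Mybl1, Mybl2 rose by 1.35 ± 0.24 and Myb by 0.32 ± 0.11, both genes of dividing progenitors. Of the RGS genes, Rgs18, a gene of platelets and their precursors, rose by 0.7 ± 0.18, Rgs3 fell by 0.24, and Rgs1, Rgs2, Rgs4, Rgs5 and Rgs16 were not called in Dp16. Neil3, the glycosylase of replicating cells, rose by 1.37 ± 0.27 (adjusted p = 0.00111, edgeR), and Neil2 was not called.

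Genes that act with the members in DNA repair, repression and signalling gave mixed calls. Of 11 genes that process the lesions made during immunoglobulin hypermutation, 6 were higher in Dp16 (Exo1 by 1.05 ± 0.14, Polh by 0.67 ± 0.13, Ung by 0.48 ± 0.11, Apex2 by 0.41 ± 0.11, Msh6 by 0.25 ± 0.07 and Apex1 by 0.21 ± 0.07) and Rev3l fell by 0.39 on the log2 scale. Of 10 glycosylase genes, 4 were higher (Neil3, Ung, Mpg and Tdg) and 2 lower (Mutyh and Smug1). Of 12 genes of the sphingosine-1-phosphate and G13 route, Sphk1, a kinase that makes the S1PR2 ligand, rose by 1.45 ± 0.21, while 6 fell, among them Gna13 (-0.3 ± 0.09) and Arhgef1 (-0.46 ± 0.09), which act below S1PR2, and the exporter Spns2 (-0.69 ± 0.1). Of 8 corepressor genes of BCL6, Hdac1, Hdac2 and Hdac3 were higher and 4 were lower, among them Bcor, Ncor1 and Sin3a. Of 12 genes that BCL6 is known to repress, 2 were higher (Chek1 by 1.01 ± 0.15 and Cdkn1a by 0.36 ± 0.13) and 5 lower, among them Bcl2 (-0.71 ± 0.11), Irf4 (-0.52 ± 0.13) and Gpr183 (-0.51 ± 0.09).

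Markers of the other cells of a germinal centre were mostly not called in Dp16. Of 11 follicular helper T cell genes, 0 were called higher and 2 lower in Dp16: Cxcr5 (-0.59 ± 0.09) and Btla (-0.58 ± 0.11), both made by B cells as well. Pdcd1 had 12.3 ± 1.9 CPM in Dp16 and 9.18 ± 5.44 CPM in WT, and Il21 1.77 CPM and 1.5 CPM. Of 10 follicular dendritic cell genes, Serpine2 rose by 0.73 ± 0.17 and Cxcl13, the chemokine that draws B cells into follicles, fell by 0.75 on the log2 scale. In Dp16 2xIFNRs against WT, 0 follicular helper T cell genes were higher and 3 lower (Cxcr5, Btla and Maf), and of the follicular dendritic cell genes Serpine2 was higher and 4 were lower (Cxcl13, Sox9, Mfge8 and Clu). Among 8 plasma cell genes 1, Jchain, was called higher and 1, Irf4, lower, in both comparisons with WT. In Dp16, of 9 T cell genes 1 was lower and of 7 NK genes 3 were lower, and of 8 macrophage genes 3 were higher and 1 lower. Over the 18 libraries, with genotype means removed, the mean of the standardised members was set against the mean log2 CPM of each list. The list genes were not standardised. The mean of the members had r = 0.95 with the wider germinal centre list, 0.77 with the follicular helper T cell list and 0.76 with the plasma cell list. It had 0.53 with the follicular dendritic cell list, -0.26 with the B cell list and 0.24 with the cell cycle list. With the erythroid list it had 0.1, and with the Gm42418 level -0.1. What sets these values was not tested.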

How the data were processed

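Spleen RNA was sequenced as strand-specific poly(A) libraries read as pairs, per the labels' protocols. The authors deposited raw gene counts and RPKM for 18 libraries; the submitters' processing notes name HISAT2 2.1.0, SAMtools 1.5 and HTSeq 0.6.1 and the build GRCm38, and the strand setting of counting is not given in the sources used here. The authors' RPKM could be rebuilt from their counts, library totals and gene lengths, with a largest relative deviation of 1.8e-15 over 11538 genes. Counts were fitted with edgeR 4.0.16 in R 4.3.3 (TMM, filterByExpr by genotype, robust quasi-likelihood fit of genotype and sex over all 18 libraries) with Benjamini-Hochberg adjustment over 18634 genes and a threshold of 0.05. The fits were tested on simulated data. log2 CPM used a prior count of 2. Alternatives were DESeq2 1.42.0, limma 3.58.1 on log2 of RPKM + 0.1 or + 1, other scalings, filters, covariates and sample sets, and each library left out in turn.

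Replicate pairs within genotypes differed beyond sampling noise (chi-square per degree of freedom 35.1 to 200 over 45 pairs). The labels do not state that each library is a separate animal, so p-values measure the spread between these samples. All 7 members were named, list genes by their smallest p in Dp16 against WT (further called list genes were named after their values were seen), and similar genes by the highest correlation (8 by rule). Some genes that these rules select are not reported here. The members and all lists were chosen with earlier results of these data known. Gene positions came from GENCODE vM21 on GRCm38, in which 99.6% of gene identifiers were found; motifs were searched in RefSeq promoter windows. Counting error is small beside replicate spread at a lowest member count of 49.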

Additional observations from a re-analysis of the deposited data

Results flagged for a closer look

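Of 21 sets of 6 libraries (7 genes in 3 genotypes), 2 held a library far from the others by Dixon's criterion for 6 values, on log2 CPM, where chance gives about 1 in 20. Gcsam in Dp16 replicate 6 was 16.6 CPM, below the 28.3 to 34.2 CPM of the other 5 Dp16 libraries (gap over range 0.736 on log2 CPM). Rgs13 in Dp16 2xIFNRs replicate 1 was 3.58 CPM, below the 7.65 to 9.69 CPM of the other 5 libraries of that genotype (gap over range 0.762 on log2 CPM). The same library was also the lowest of its genotype for Mef2b (9.77 CPM), Mybl1 (6.08 CPM), S1pr2 (13.8 CPM), Gcsam (21.3 CPM) and Neil1 (21.9 CPM), where it did not meet the criterion.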

How the results depend on the processing

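Against WT, each of the 7 members kept its direction under all 32 alternatives without cell scores. The number called in Dp16, 5 of 7, was 3 without the low-count filter, 2 with a library index term, 3 with only the 12 libraries of the contrast, 0 without the 4 libraries over 4% Gm42418 and 0 with erythroid and neutrophil score terms, where errors grew (Gcsam 0.60 ± 0.69, Rgs13 1.20 ± 1.25). All genes called higher and lower in Dp16 were 3091 and 2462 of 18634 in the main fit. They were 2518 and 2618 of 31685 without the filter, and 2851 and 2169 of 18634 with the index term. With the 12 libraries they were 3311 and 2424 of 17795, and without the Gm42418 libraries 2493 and 1683 of 18976. In Dp16 2xIFNRs the number of members called, 5 of 7, was 3 without the filter, 3 with the 12 libraries, 1 without the Gm42418 libraries and 0 with score terms. All genes called higher and lower there were 3217 and 2643 of 18634 in the main fit, and 2690 and 2679 of 31685 without the filter. With the 12 libraries they were 3159 and 2473 of 17793, and without the Gm42418 libraries 2609 and 1734 of 18976. Leaving out 1 library gave 2 to 7 members called in Dp16 and 3 to 6 in Dp16 2xIFNRs. All genes called then ranged from 4779 to 5781 in Dp16 and from 4938 to 6064 in Dp16 2xIFNRs. With score terms, which cannot be separated from genotype, 0 genes of all tested were called in both comparisons with WT. The Bcl6 estimate there changed sign, to 0.67 ± 0.32 in Dp16, 0.59 ± 0.3 in Dp16 2xIFNRs and, for females against males, 0.27 ± 0.13. The Gm42418 and 12-library settings fit fewer samples. What changed the number of members called was not tested for any setting. Sample numbers did not pair libraries (mean correlation of same-numbered deviations 0.019, range -0.132 to 0.201). With the replicate block, S1pr2 was called in Dp16 (adjusted p = 0.0297, edgeR) and Dp16 2xIFNRs (0.0469), Bcl6 was not in Dp16 (0.051), nor Mybl1 in Dp16 2xIFNRs (0.0501). The description-code block and DESeq2 each called 7 of 7 in both, where each also called more of all genes higher and lower than the main fit. For Dp16 2xIFNRs against Dp16, where no member was called under any alternative, near-zero differences changed sign: Mybl1 to -0.03 and -0.01 on RPKM + 0.1 and + 1, -0.03 with the replicate block, -0.04 with a block on shared description codes and -0.12 without the Gm42418 libraries; Mef2b, Gcsam and S1pr2 to 0.06, 0.02 and 0.06 with the library index; and without the Gm42418 libraries Bcl6 to 0.00 and Neil1 to 0.04. Leaving out 1 library gave -0.07 to 0.02 for Bcl6, -0.21 to 0.09 for Mef2b, -0.14 to 0.06 for Gcsam, -0.10 to 0.05 for Neil1, -0.19 to 0.01 for S1pr2 and -0.10 to 0.13 for Mybl1, and for Bcl6 in females against males -0.12 to 0.02. Genes called by sex, 48, were 142 with DESeq2, 16 with the replicate block, 29 with the code block, 7 with score terms, 10 without the Gm42418 libraries and 21 to 81 without 1 library.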

Other observations

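Among the 50 genes that followed the mean of the standardised members most closely over the 18 libraries, 5 were immunoglobulin segments, a share of 10%, against 202 of the 14214 genes searched (1.42%). Csn2, a milk casein gene, had 2.78 ± 1.65 CPM in Dp16, 1.98 ± 1.12 CPM in Dp16 2xIFNRs and 0.721 ± 0.752 CPM in WT (SD, n = 6 each), with a log2 fold change of 2.07 ± 0.8 in Dp16 against WT that did not pass the test (adjusted p = 0.0626, edgeR). Csn2 was at 0.0398 CPM in WT replicate 1 and 0.0224 CPM in Dp16 2xIFNRs replicate 1, below the level of 3 counts in those libraries. H1f10 had 8.71 ± 0.771 CPM in Dp16, 8.2 ± 3.62 CPM in Dp16 2xIFNRs and 6.17 ± 3.05 CPM in WT (0.54 ± 0.3 in Dp16, adjusted p = 0.197, edgeR). These genes were chosen for their likeness to the members in the same libraries.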
